A study of Mus musculus with 3 samples.

Results

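The proteasome genes of mouse haematopoietic stem cells were followed across 3 doses of gamma radiation. Members were the named genes of the array whose symbol starts with Psm, one of the letters a to g and a digit, pseudogenes left out. The rule found 48 genes of 23185 named genes, and all 48 were read on the 3 arrays. Of these, 46 encode proteasome subunits, activators, an inhibitor or assembly factors. The other 2 match by symbol only: Psmc3ip encodes a meiotic recombination protein that binds Psmc3, and Psme3ip1 a protein that binds Psme3. Psmb3, Psmb5 and Psme2b are not analysed here.

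The cells were bone marrow stem cells of the long-term class, sorted for CD150, Kit and Sca and against CD48, Flk2 and lineage markers, and held overnight in serum-free culture before exposure. The groups were cells given 0 Gy (unirradiated), 0.02 Gy (low dose) and 2.5 Gy (high dose), all harvested 2 hours later, with 1 array per dose; the labels state no strain, age or number of pooled animals. The values are the authors' deposited log2 values, so a difference of 1 is 2-fold. With 1 array per dose there is no replicate spread and no test, and every difference below is a difference between 2 single arrays. The series asks how the cells respond at once to low doses, with the unirradiated array as control.

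The proteasome is the protease that degrades proteins tagged with ubiquitin. Its barrel-shaped core is built of rings of alpha and beta subunits, with the proteolytic sites on some of the beta subunits. A regulatory particle made of a base, which holds a ring of ATPases, and a lid caps the core, recognises ubiquitin, removes it and unfolds the substrate. In blood cells and after interferon, the catalytic beta subunits are exchanged for immunoproteasome subunits, and the PA28 activator can replace the regulatory particle, which alters the peptides made for antigen presentation. Transcription factor Nfe2l1 raises proteasome genes together when proteasome activity falls short.

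Arrays were checked against the sort first. Of 6 stem cell markers 5 were measured, and all 5 passed 4.55, the median level of all named genes and the level minimum used here; they averaged 6.45 on the 0 Gy array, 6.56 on the 0.02 Gy array and 6.56 on the 2.5 Gy array. Kit, the stem cell factor receptor, was at 8.58 on the 0 Gy array, 8.78 on the 0.02 Gy array and 8.50 on the 2.5 Gy array, and Slamf1, which encodes CD150, was at 5.24, 4.75 and 4.84 in the same order. These markers had no common direction: Hlf, a stem cell transcription factor, was at 7.21, 7.62 and 7.88, Mecom, another, at 5.73, 6.22 and 6.12, and Procr, a surface marker, at 5.50, 5.45 and 5.43, over 0, 0.02 and 2.5 Gy. Of the markers sorted against, Cd48 lay below the minimum on all 3 arrays, at 3.62, 3.31 and 3.40. Flt3, which encodes Flk2, lay above it on all 3, at 4.6 on the 0 Gy array, 4.95 on the 0.02 Gy array and 4.93 on the 2.5 Gy array. The 6 mature myeloid markers averaged 5.37 on the 0 Gy array, 5.98 on the 0.02 Gy array and 6.0 on the 2.5 Gy array. S100a8 and S100a9 were 1.30 and 1.12 higher at 0.02 Gy and 1.24 and 1.56 higher at 2.5 Gy than at 0 Gy. At 0.02 Gy Csf1r differed by −0.27, Elane by 0.94, Itgam by 0.42 and Mpo by 0.16. At 2.5 Gy these differences were 0.18, 0.12, 0.01 and 0.70 in the same order. Of 4 measured lymphoid markers 1 passed the minimum, Nkg7, at 6.50 on the 0 Gy array, 5.97 on the 0.02 Gy array and 5.88 on the 2.5 Gy array. All 3 measured erythroid markers passed it, with averages of 5.33, 5.26 and 5.28 over these doses. So did all 4 megakaryocyte markers, with averages of 6.80, 6.97 and 6.82. The part of these markers in the results below was not tested, and in bulk RNA fewer cells of a type and less RNA per cell cannot be told apart.

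Proteasome genes differed little between the arrays. Of the 48 members, 44 had a mean over the 3 arrays at or above the level minimum, as did 11593 of all named genes. Among these 44, the 3 values of a gene spanned a median of 0.36 on the log2 scale, against 0.37 for all 11593 genes. For 36 of the 44 the highest and lowest values lay within 1.5-fold of each other (81.8%, against 77.6% of all genes). The members that spanned at least 2-fold were 2, Psmc1 and Psme2, and the share of all genes with such a span was not counted. The 4 members below the minimum were Psma5, Psmb11, Psmg2 and Psmd5.

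**Figure D1:**
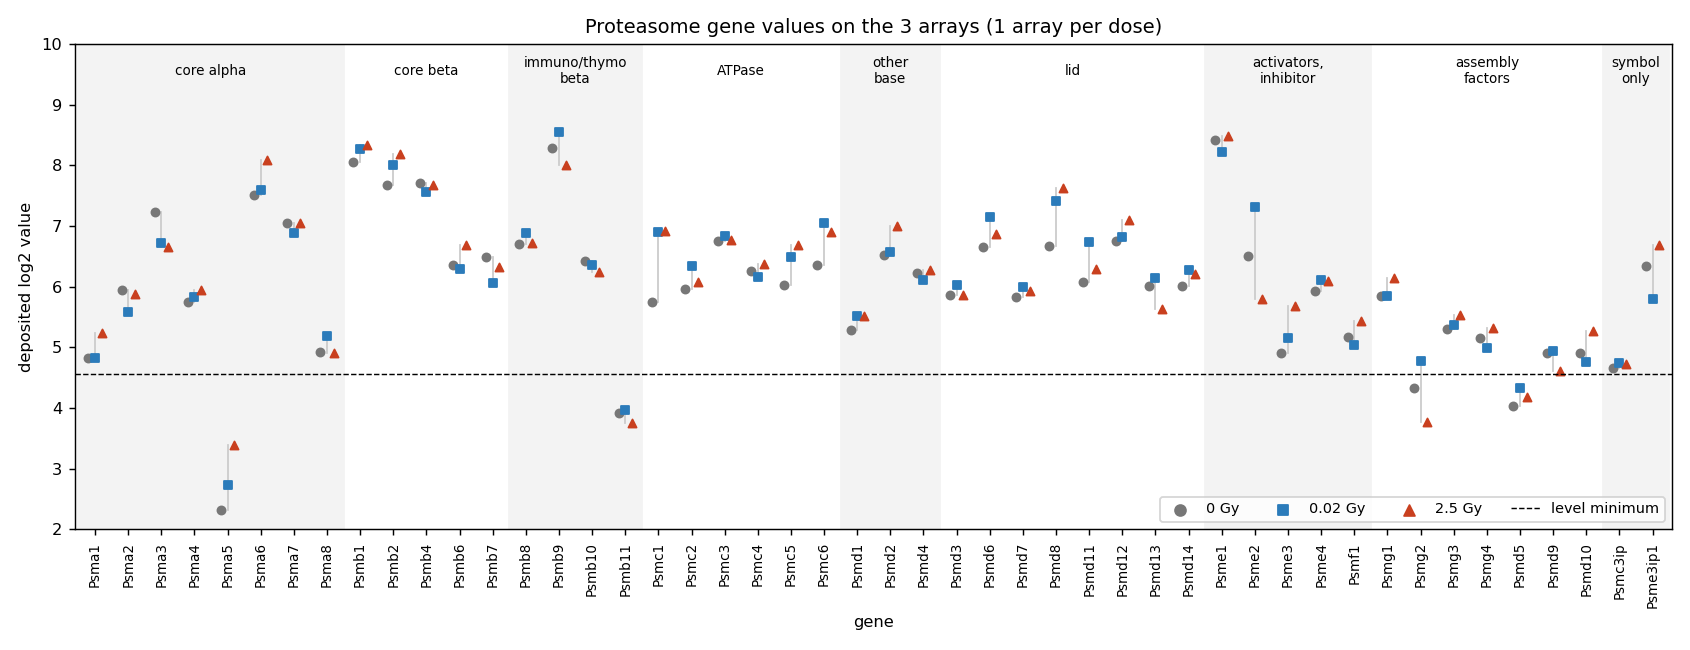
Deposited log2 values (vertical axis) of the 48 members (horizontal axis) on the 0 Gy (circle), 0.02 Gy (square) and 2.5 Gy (triangle) arrays, grouped by role, with the level minimum as a dashed line. Psmc3ip and Psme3ip1 match by symbol only. Most genes hold 3 values close together; Psmc1 stands low on the 0 Gy array, at 5.75, and Psme2 low on the 2.5 Gy array, at 5.79.

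At 0.02 Gy the members as a whole lay close to all genes. Their median difference from 0 Gy was 0.08, against 0.04 for all genes, and 30 of 44 were above 0 (68.2%, against 54.2% of all genes). After quantile normalization 22 of 44 were above 0, against 49.5% of all genes, and after loess 24 of 44, against 49.7%, so the excess over all genes was small or absent there. At least 2-fold higher was 1 member, Psmc1, which is 2.27% of the 44 against 1.33% of all genes, and no member was 2-fold lower, against 1.14% of all genes. At a size of 1.5-fold, 5 members were higher (11.4%, against 7.5% of all genes), namely Psmc1, Psmc6, Psmd8, Psmd11 and Psme2, and 0 were lower, against 4.72%. Counts this small stand near the share of all genes. The irradiated arrays also differed from the 0 Gy array by level: the median of all genes in the top level decile was 0.21 at 0.02 Gy and 0.15 at 2.5 Gy, and 24 of the 44 members lay in the top 2 deciles. Against the median of its own decile, a member was higher by a median of 0.03, and 24 of 44 were above it.

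At 2.5 Gy the shift of the members was larger but still small. The median difference from 0 Gy was 0.18, a 1.13-fold difference, against 0.02 for all genes, and 32 of 44 members were above 0 (72.7%, against 53.4% of all genes). After quantile normalization and after loess 29 of 44 were above 0, against 48.4% and 49.4% of all genes, with medians of 0.10 and 0.10. Psmc1 was again the 1 member at least 2-fold higher, against 1.15% of all genes, and no member was 2-fold lower, against 0.578%. At 1.5-fold, Psmc1, Psmc5, Psmd8 and Psme3 were higher (9.09% of members, against 6.07% of all genes) and Psme2 was lower (2.27%, against 3.44%). Against the median of its own level decile, a member was higher by a median of 0.11, with 28 of 44 above it. Both dose comparisons share the 0 Gy array.

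Between the doses, which does not use the 0 Gy array, the median of 2.5 Gy minus 0.02 Gy was 0.11 for the members and −0.0025 for all genes. Of the 44, 26 were above 0 (59.1%, against 49.4% of all genes). No member was 2-fold higher at 2.5 Gy than at 0.02 Gy, against 1.44% of all genes, and 1 was 2-fold lower, Psme2, against 1.06%. At 1.5-fold, 1 was higher, Psme3ip1, which is not a proteasome protein (2.27%, against 5.74%), and Psme2 was the 1 lower (2.27%, against 5.67%). Per gene, the highest of the 3 values was on the 2.5 Gy array for 22 of 44 members (50%, against 33.0% of all genes). It was on the 0.02 Gy array for 16 (36.4%, against 37.4%) and on the 0 Gy array for 6 (13.6%, against 29.6%). The lowest was on the 0 Gy array for 24 of 44 (54.5%, against 37.4% of all genes), and after quantile normalization for 18 (40.9%, against 32.9%). After a loess over level, which takes out the level trend, the 2.5 Gy array was highest for 21 of 44 members (47.7%, against 32.2% of all genes).

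**Figure D2:**
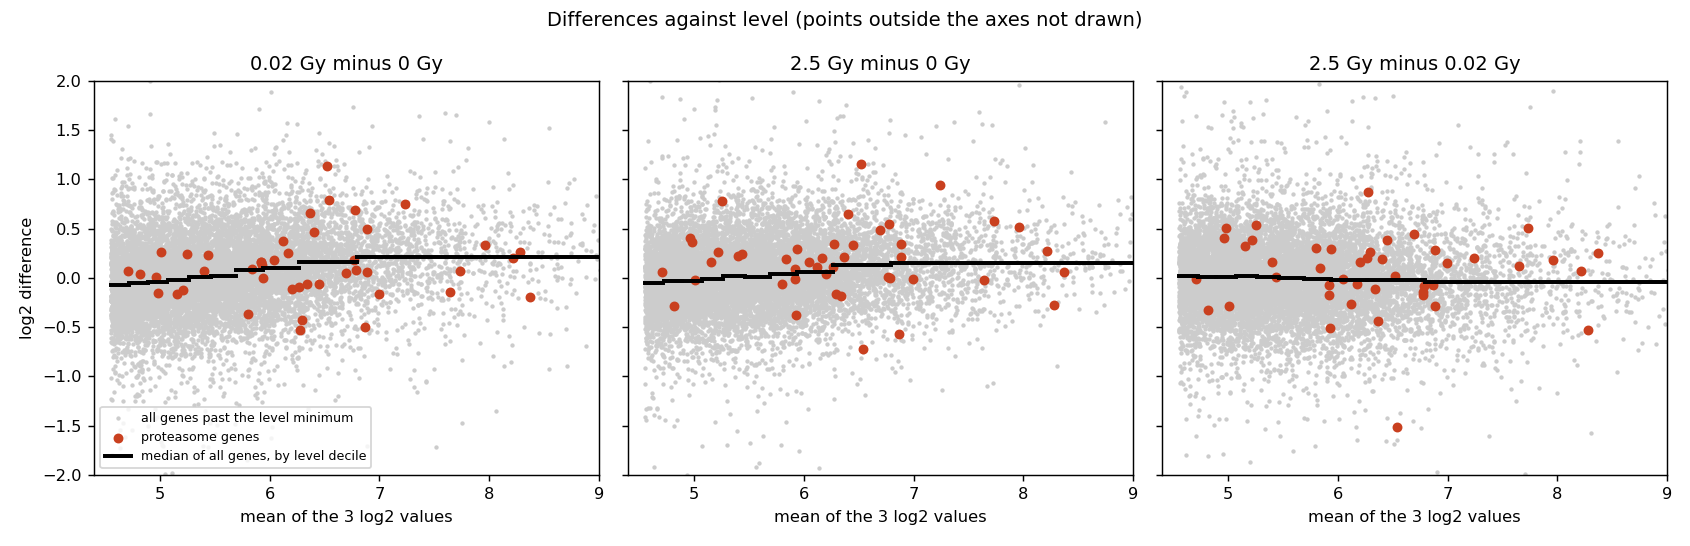
Log2 difference (vertical axis) against the mean of the 3 log2 values (horizontal axis) for all genes past the level minimum (grey) and the 44 members (red) in each comparison, with the median of all genes by level decile as black lines. The members include Psmc3ip and Psme3ip1, matched by symbol only. The medians climb with level in both comparisons with 0 Gy, to 0.21 and 0.15 in the top decile, where 11 members lie, and the members scatter on both sides of the lines.

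**Figure D3:**
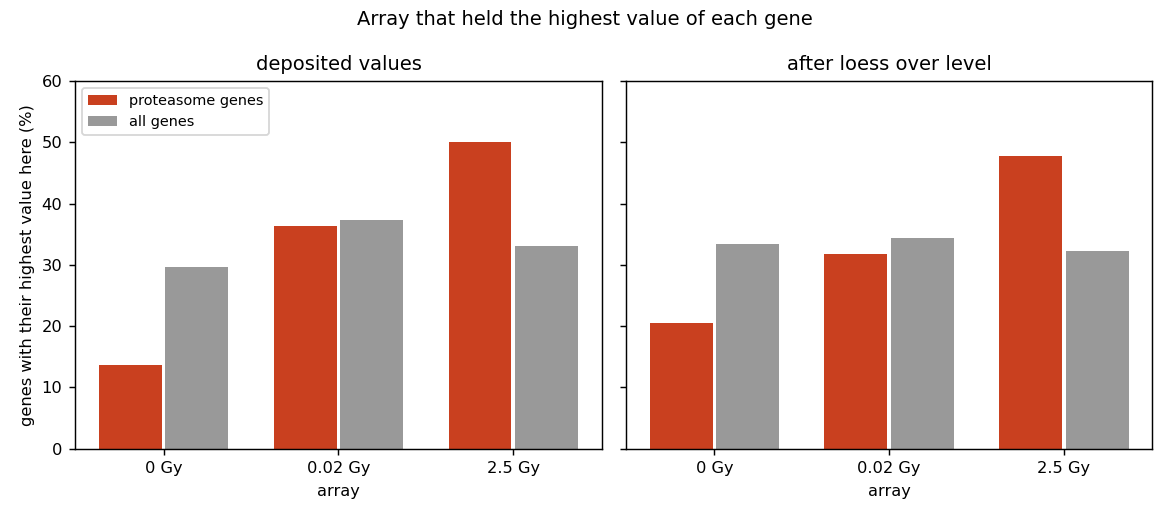
Share of genes (vertical axis, percent) with their highest value on each array (horizontal axis), for the 44 members (red) and all 11593 genes past the level minimum, members included (grey), in the deposited values and after loess over level. The 2.5 Gy array is highest for 50% of members against 33.0% of all genes in the deposited values, and for 47.7% against 32.2% after loess.

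The alpha subunits, which form the outer rings and the gate of the core, had no common direction against 0 Gy. Among the 7 past the minimum, 4 were above 0 at 0.02 Gy with a median of 0.01, and 3 at 2.5 Gy with a median of −0.01, values whose signs turned with the scaling. Psma3 was at 7.23 on the 0 Gy array, 6.73 on the 0.02 Gy array and 6.66 on the 2.5 Gy array. It was thus lower on both irradiated arrays, by differences of −0.50 and −0.57, the lowest of the alpha group. Psma6 ran the other way at the high dose, at 7.52 on the 0 Gy array, 7.59 on the 0.02 Gy array and 8.09 on the 2.5 Gy array. Psma1 was at 4.83, 4.83 and 5.23, Psma2 at 5.95, 5.58 and 5.89 and Psma4 at 5.74, 5.84 and 5.94 over 0, 0.02 and 2.5 Gy. All 3 lay within 1.5-fold, as did 77.6% of all genes. Psma7 was nearly level at 7.05, 6.89 and 7.04 in that order. Psma8, a testis form of Psma7, was at 4.93, 5.19 and 4.91 in that order, near the level minimum. Psma5 stood far below the minimum, at 2.32 on the 0 Gy array, 2.73 on the 0.02 Gy array and 3.39 on the 2.5 Gy array, although the core needs every alpha subunit; signal over background is not known for it, and its difference of 1.07 at 2.5 Gy was not counted.

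Of the standard beta subunits, 5 were measured, and all 5 were above 0 in 2.5 Gy minus 0.02 Gy, against 49.4% of all genes. This held under each of 3 scalings as well. The differences were between 0.07 and 0.39, with a median of 0.18. Psmb6, which carries the caspase-like site, was at 6.36 on the 0 Gy array, 6.30 on the 0.02 Gy array and 6.69 on the 2.5 Gy array. Psmb7, with the trypsin-like site, was at 6.49, 6.06 and 6.33 in that order, lowest on the 0.02 Gy array. Psmb2, a structural subunit, was at 7.68 on the 0 Gy array, 8.01 on the 0.02 Gy array and 8.19 on the 2.5 Gy array, so both irradiated arrays lay above the 0 Gy array. Psmb1 was at 8.06, 8.26 and 8.33, and Psmb4 at 7.70, 7.56 and 7.68, over 0, 0.02 and 2.5 Gy.

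The immunoproteasome subunits lay in the opposite direction between the doses. Psmb8, Psmb9 and Psmb10, which replace Psmb5, Psmb6 and Psmb7, were all lower at 2.5 Gy than at 0.02 Gy, with differences of −0.17, −0.53 and −0.11. They were lower under each of 3 scalings too, and 50.4% of all genes were lower in this comparison. Psmb9 was at 8.28 on the 0 Gy array, 8.54 on the 0.02 Gy array and 8.01 on the 2.5 Gy array. Psmb8 was at 6.71, 6.89 and 6.72 and Psmb10 at 6.42, 6.36 and 6.24 over the same doses. None reached 1.5-fold in any comparison, as was so for 77.6% of all genes. Psmb11, the subunit of the thymus proteasome, lay below the level minimum at 3.91, 3.97 and 3.75. Among protein-coding genes in the order of GRCm38.p6, Psmb9, Tap1, Psmb8 and Tap2 follow each other, Tap1 and Tap2 encoding the transporter that carries peptides to MHC class I. Tap1 was at 7.22 on the 0 Gy array, 7.58 on the 0.02 Gy array and 7.27 on the 2.5 Gy array, and Tap2 at 6.29, 6.43 and 6.08, so these neighbours were also lower at 2.5 Gy than at 0.02 Gy. Tap2 was named for its place beside the subunits, after its values were seen.

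ATPase genes of the base held the highest values against 0 Gy. Of the 6, 5 were above 0 at 0.02 Gy with a median of 0.42, and 6 at 2.5 Gy with a median of 0.33. In level deciles 7 to 10, which hold all 6, 65.7% of all genes were above 0 at 0.02 Gy and 62.0% at 2.5 Gy. After quantile normalization and after loess the ATPase counts were 4 and 5, with medians of 0.31 and 0.30 at 0.02 Gy and 0.24 and 0.22 at 2.5 Gy. Psmc1 was at 5.75 on the 0 Gy array, 6.90 on the 0.02 Gy array and 6.91 on the 2.5 Gy array. The 2 irradiated arrays thus held nearly the same value and the 0 Gy array stood apart. The differences were 1.14 at 0.02 Gy (2.21-fold) and 1.16 at 2.5 Gy (2.23-fold), and 88 and 87 of the 11593 genes had larger ones. After loess the difference at 0.02 Gy was 0.99, just under 2-fold.

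Psmc6 followed at 6.36 on the 0 Gy array, 7.05 on the 0.02 Gy array and 6.91 on the 2.5 Gy array. Psmc5 was at 6.03, 6.49 and 6.68 over these doses, and Psmc2 at 5.96, 6.34 and 6.07. By contrast Psmc3 hardly differed, at 6.76, 6.84 and 6.76, and Psmc4 was at 6.26, 6.17 and 6.37. The ATPases act as 1 hexamer with 1 copy of each, yet their differences from 0 Gy ran from −0.09 to 1.14 at 0.02 Gy and from 0.00 to 1.16 at 2.5 Gy.

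The other base subunits varied less. Psmd2, a scaffold that binds ubiquitin shuttles, was at 6.52 on the 0 Gy array, 6.56 on the 0.02 Gy array and 7.01 on the 2.5 Gy array, highest at the high dose. Psmd1, the other large scaffold, was at 5.28, 5.51 and 5.52, and Psmd4, a ubiquitin receptor, at 6.22, 6.11 and 6.27, over 0, 0.02 and 2.5 Gy. None of these 3 reached 1.5-fold, and neither did 77.6% of all genes.

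All 8 lid genes were above 0 at 0.02 Gy, with differences from 0.06 to 0.75 and a median of 0.21. All 8 lay in level deciles 7 to 10, where 65.7% of all genes were above 0, with a median of 0.14. After quantile normalization and after loess 7 of 8 lid genes were above 0, with a median of 0.12. At 2.5 Gy 6 of 8 were above 0, against 62.0% of all genes in deciles 7 to 10, with a median of 0.20, or 0.09 after loess. Psmd8 was the highest at both doses. It was at 6.67 on the 0 Gy array, 7.42 on the 0.02 Gy array and 7.62 on the 2.5 Gy array, with differences of 0.75 and 0.95. In 2.5 Gy minus 0.02 Gy 6 of 8 lid genes were below 0, against 53.2% of all genes in deciles 7 to 10, with a median of −0.12. The count was 6 under each of 3 scalings too. Among these 6 were Psmd11, at 6.08 on the 0 Gy array, 6.73 on the 0.02 Gy array and 6.29 on the 2.5 Gy array, and Psmd6, at 6.65, 7.15 and 6.86. Psmd13 was lowest at the high dose, at 6.01, 6.14 and 5.63 over 0, 0.02 and 2.5 Gy. Psmd14, the deubiquitinase of the lid, was at 6.02, 6.28 and 6.22, Psmd12 at 6.75, 6.81 and 7.10, Psmd7 at 5.83, 6.0 and 5.92, and Psmd3 at 5.87, 6.03 and 5.86.

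Base and lid of the regulatory particle together, 17 genes, had a median of 0.23 at 0.02 Gy with 15 above 0. The 12 core alpha and beta genes past the minimum had a median of −0.03 with 6 above 0. These 12 include the testis form Psma8, while Psma5, Psmb3 and Psmb5 are not among them. After loess the medians were 0.15 with 12 above 0 for base and lid, and −0.18 with 4 above 0 for the core, whose median after median centring was 0.04, above 0. At 2.5 Gy the medians were 0.21 (15 above 0) for base and lid and 0.09 (6 above 0) for the core, or 0.11 and 0.04 after loess. Of all genes, 54.2% were above 0 at 0.02 Gy and 53.4% at 2.5 Gy, or 65.7% and 62.0% in level deciles 7 to 10. Between the doses the order turned: in 2.5 Gy minus 0.02 Gy the median was −0.06 (8 of 17 above 0) for base and lid and 0.16 (10 of 12) for the core. Of all genes 49.4% were above 0 there. For each gene this comparison is the difference of the 2 before it, so the turned order is not a separate observation. With 1 array per dose the difference between core and regulatory particle was not tested.

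**Figure D4:**
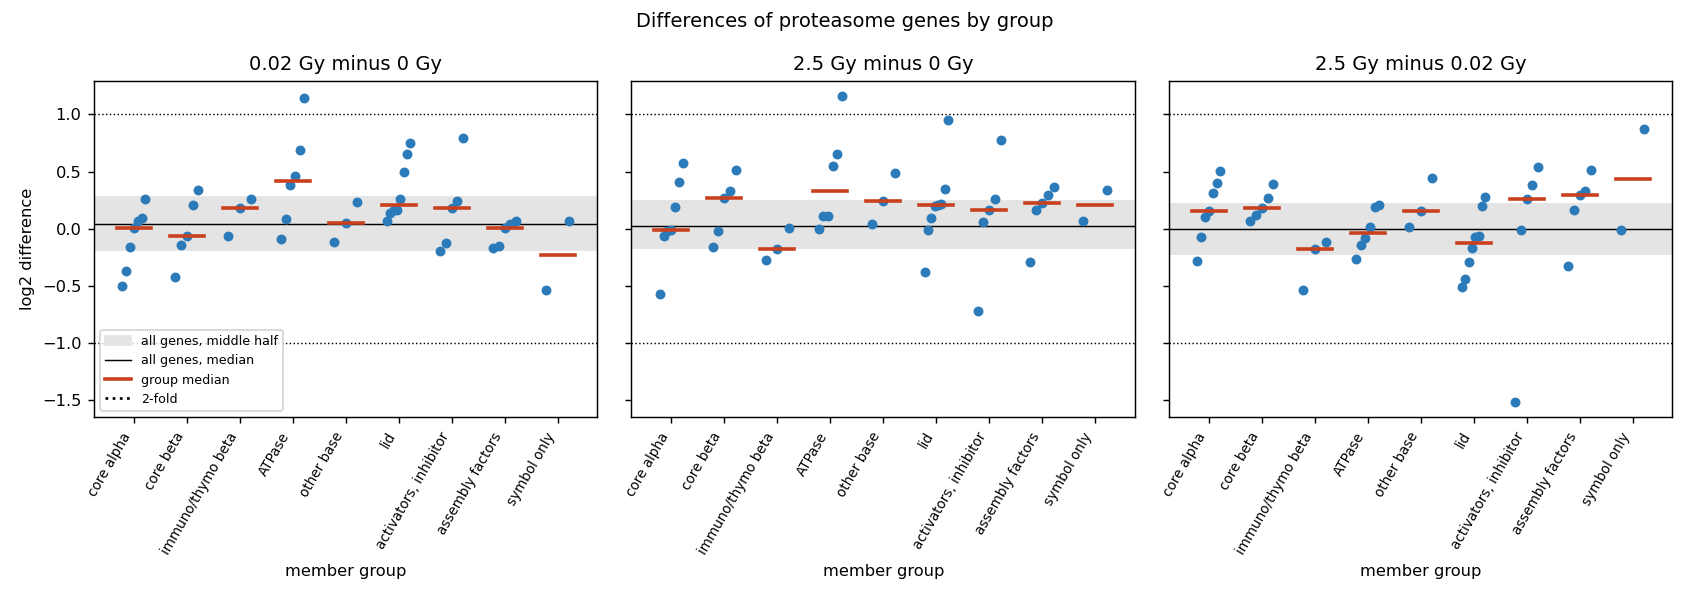
Log2 difference (vertical axis) of the 44 members past the level minimum by role (horizontal axis) in the 3 comparisons, with group medians in red, the median and interquartile range of all genes in black and grey, and 2-fold as dotted lines. The ATPase median is highest against 0 Gy at 0.02 Gy, at 0.42, and Psme2 is the lowest point in 2.5 Gy minus 0.02 Gy, at −1.51.

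Psme2 gave the widest span of any member. It encodes a subunit of PA28, the activator that opens the core in cells making antigen peptides. Psme2 was at 6.51 on the 0 Gy array, 7.31 on the 0.02 Gy array and 5.79 on the 2.5 Gy array. The 0 Gy array thus stood between the doses, with 0.02 Gy 0.79 higher and 2.5 Gy lower by a difference of −0.72. In 2.5 Gy minus 0.02 Gy the difference was −1.51 (2.86-fold lower), and 25 of the 11593 genes had lower ones. After quantile normalization and after loess it was −1.45 and −1.47. Psme1, which encodes the partner subunit in the same ring, did not share the pattern, at 8.42 on the 0 Gy array, 8.22 on the 0.02 Gy array and 8.48 on the 2.5 Gy array. Psme2 has a close copy in the mouse genome, Psme2b; whether the probe set also reads that copy was not tested.

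Psme3, which forms a related activator in the nucleus, was highest at the high dose, at 4.91 on the 0 Gy array, 5.15 on the 0.02 Gy array and 5.69 on the 2.5 Gy array, a difference of 0.78 between 2.5 and 0 Gy. Psme3ip1, whose product binds Psme3, was at 6.34, 5.80 and 6.68 over these doses, lowest on the 0.02 Gy array. Psme4, the activator that acts on acetylated histones, was at 5.93, 6.11 and 6.09. Psmf1, an inhibitor of the core in vitro, was at 5.17, 5.04 and 5.43, and Psmc3ip at 4.67, 4.74 and 4.73.

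Assembly factors past the minimum had a median of 0.00 at 0.02 Gy (−0.07 after quantile normalization and −0.08 after loess) and 0.23 at 2.5 Gy. At 2.5 Gy 4 of 5 were above 0, against 53.4% of all genes. In 2.5 Gy minus 0.02 Gy their median was 0.29 with 4 of 5 above 0, against 49.4% of all genes. Psmg1, which with Psmg2 guides assembly of the alpha ring, was at 5.84 on the 0 Gy array, 5.84 on the 0.02 Gy array and 6.14 on the 2.5 Gy array. Its partner Psmg2 was at 4.32, 4.77 and 3.77 in that order, with a mean below the level minimum, and its difference of −1.01 between 2.5 and 0.02 Gy was not counted. Psmg3 was at 5.30, 5.37 and 5.53 and Psmg4 at 5.16, 4.99 and 5.32. Of the base chaperones, Psmd10, known as gankyrin, was at 4.91 on the 0 Gy array, 4.76 on the 0.02 Gy array and 5.27 on the 2.5 Gy array, and Psmd9 at 4.90, 4.94 and 4.61. Psmd5 lay below the minimum at 4.03, 4.33 and 4.18.

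Genes of the pathway outside the rule were read from lists chosen with earlier results of these data known. Of 10 other proteasome proteins, 8 were measured and 7 passed the minimum. All but Ube3c of these 7 lay in level deciles 7 to 10. At 0.02 Gy 7 were above 0 (54.2% of all genes, or 65.7% in those deciles). At 2.5 Gy 3 were above 0 (53.4%, or 62.0%), and 1 was in 2.5 Gy minus 0.02 Gy (49.4%, or 46.6%). That last comparison shares the 0.02 Gy array with the first, and in it Pomp was the 1 gene 2-fold lower (against 1.06% of all genes). At 0.02 Gy the median of the 7 was 0.34, against 0.18 with 6 of 7 above 0 after quantile normalization and 0.21 with 5 of 7 after loess. Pomp, which matures the core and is needed for the beta subunits to join, was at 6.03 on the 0 Gy array, 6.89 on the 0.02 Gy array and 5.64 on the 2.5 Gy array. Psme2 has the same order over the doses, 0.02 Gy highest and 2.5 Gy lowest, a likeness picked after the values were seen. That order was held by 6 of the 44 members, Psma8, Psmb9, Psmd3, Psmd9, Psmd13 and Psme2 (13.6%, against 16.9% of all genes). Ube3c, a ligase on the proteasome, was at 4.66, 4.86 and 5.29, and Txnl1, a thioredoxin-like protein of the regulatory particle, at 7.17, 7.58 and 7.03.

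Among the regulators, Nfe2l1 was nearly level at 5.78 on the 0 Gy array, 5.99 on the 0.02 Gy array and 5.85 on the 2.5 Gy array. Ngly1, which edits Nfe2l1 protein, was at 5.09, 5.79 and 5.22 over these doses. Nfe2l2, the antioxidant regulator, was at 7.18 on the 0 Gy array, 7.67 on the 0.02 Gy array and 8.38 on the 2.5 Gy array, the 1 regulator of 4 at least 2-fold higher at 2.5 Gy than at 0 Gy, against 1.15% of all genes. After quantile normalization that difference was 0.998, just under 2-fold. Of 8 shuttle and unfoldase genes past the minimum, 1 was at least 2-fold higher at 0.02 Gy, against 1.33% of all genes, namely Vcp, the ATPase that extracts ubiquitinated proteins, at 4.80 on the 0 Gy array, 5.92 on the 0.02 Gy array and 5.54 on the 2.5 Gy array. Its cofactor gene Nsfl1c was at 6.16, 7.07 and 6.50 and the shuttle gene Rad23b at 6.41, 6.80 and 7.01. Uba6, a ubiquitin-activating enzyme, was at 5.61, 5.79 and 5.40. The 7 antigen processing genes had no member past 1.5-fold in any comparison, and 77.6% of all genes also spanned less than that. Tapbp was at 6.67, 6.89 and 7.06 and Irf1 at 5.16, 5.24 and 5.54.

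**Figure D5:**
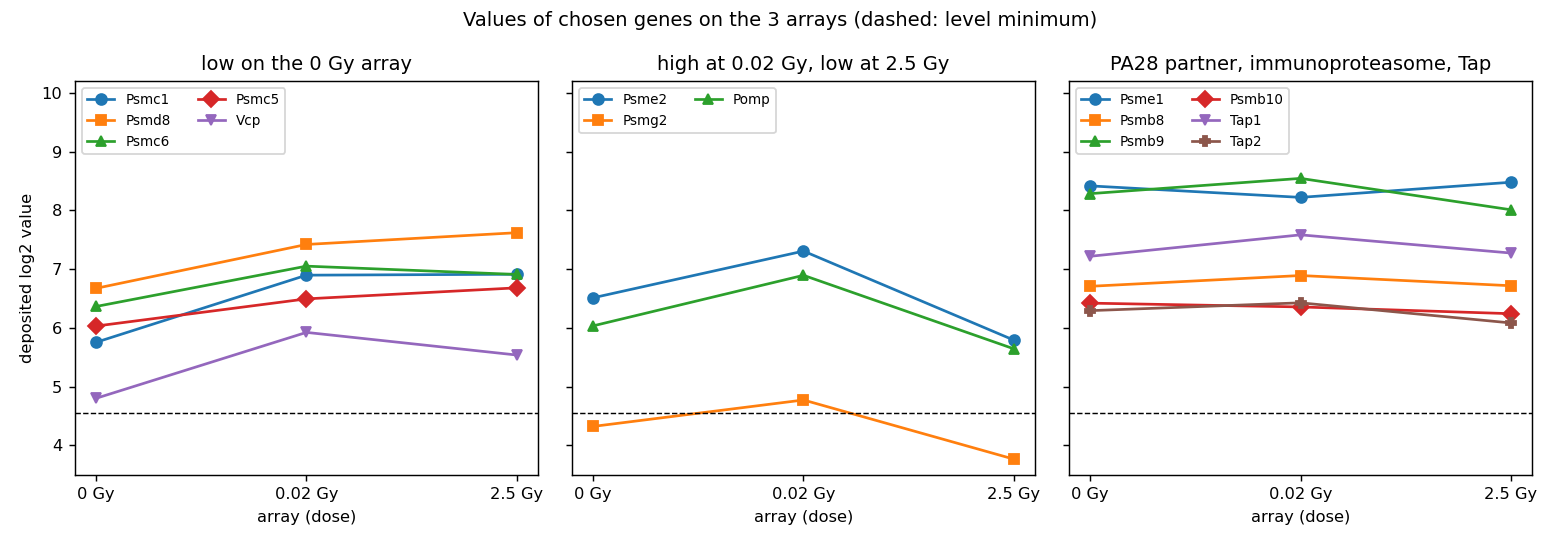
Deposited log2 values (vertical axis) of chosen genes on the 0, 0.02 and 2.5 Gy arrays (horizontal axis), with the level minimum as a dashed line. Psmc1, Psmd8 and Vcp are lowest on the 0 Gy array, and Psme2, Psmg2 and Pomp are highest at 0.02 Gy and lowest at 2.5 Gy. Psme1 and the immunoproteasome genes stay within 1.5-fold, as do 77.6% of all genes.

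Promoters are shown for 4 genes the results turn on, from RefSeq on GRCm38.p6, as the 250 bases before the annotated start, read on the strand of the gene. Psmc1 and Psmd8 are the ATPase and lid genes with the largest differences from 0 Gy at both doses, and Psme1 and Psme2 are the PA28 partners that differed from each other. Capitals mark, in Psmc1, a CCAAT box and an ETS match (CCGGAAGTG, here on the opposite strand, 30 to 22 bases before the start), and in the others each match to a loose NF-κB-like pattern, GGG and CC with any 5 bases between, on either strand.
Psmc1, chr12:100109952-100110201, plus strand: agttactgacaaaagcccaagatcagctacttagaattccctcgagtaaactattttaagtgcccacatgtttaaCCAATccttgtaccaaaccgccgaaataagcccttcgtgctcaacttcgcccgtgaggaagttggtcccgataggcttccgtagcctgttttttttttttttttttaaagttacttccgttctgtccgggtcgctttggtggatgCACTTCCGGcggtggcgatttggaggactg
Psmd8, chr7:29180674-29180923, minus strand: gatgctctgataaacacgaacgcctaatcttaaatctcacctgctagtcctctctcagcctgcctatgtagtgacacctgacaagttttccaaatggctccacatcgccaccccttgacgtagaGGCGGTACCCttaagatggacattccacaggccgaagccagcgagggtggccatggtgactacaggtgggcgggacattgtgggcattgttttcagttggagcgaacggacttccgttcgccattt
Psme1, chr14:55578244-55578493, plus strand: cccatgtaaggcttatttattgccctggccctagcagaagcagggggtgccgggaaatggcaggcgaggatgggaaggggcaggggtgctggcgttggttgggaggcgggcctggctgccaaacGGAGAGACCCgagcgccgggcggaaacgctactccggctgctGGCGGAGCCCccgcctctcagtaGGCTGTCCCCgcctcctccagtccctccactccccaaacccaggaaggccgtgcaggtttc
Psme2, chr14:55591102-55591351, minus strand: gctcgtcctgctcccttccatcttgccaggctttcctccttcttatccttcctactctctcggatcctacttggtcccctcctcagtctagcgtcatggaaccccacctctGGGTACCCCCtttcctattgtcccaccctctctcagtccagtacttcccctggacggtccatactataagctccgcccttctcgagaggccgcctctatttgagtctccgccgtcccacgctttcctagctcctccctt
For Psme2, with 2 annotated starts, the first listed is shown.

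A promoter was listed for 40 of the 48 members and for 27025 genes in all. The antioxidant response element TGACNNNGC, the kind of site Nfe2l1 binds, was found on either strand in 4 of 40 members (10%, against 11.5% of all genes), Psmb6, Psmc6, Psmd9 and Psmd12. The interferon response element, GAAA and GAAA with any 2 bases between, was in 2 (5.0%, against 3.46%), the NF-κB-like pattern in 22 (55.0%, against 48.7%), and CCAAT in 15 (37.5%, against 37.5%). The ETS match was in 3 (7.5%, against 1.60%), Psmc1, Psmc2 and Psme4. A site for NRF-1, nuclear respiratory factor 1 (GCGCA and GCGC with any base between, either strand, a different protein from Nfe2l1), was in 6 members (15%, against 4.23%). Of 10 motifs searched, these 2 had the largest ratio of the share in members to that in all genes; base composition was not matched, and a match is a description of letters, not of binding. The 6 NRF-1 matches are shown with up to 10 bases on each side, the match in capitals.
Psma2, chr13:14613105-14613134, plus strand: ggcccctcttGCGCATGCGCaagggtcaaa
Psma3, chr12:70974535-70974564, plus strand: tatggtttctGCGCACGCGCgctctctgct
Psma4, chr9:54950788-54950817, plus strand: tcgcagtcctGCGCACGCGCgggagccata
Psmc4, chr7:28050242-28050271, minus strand: aagagttactGCGCACGCGCaacatccttg
Psmc5, chr11:106256126-106256155, plus strand: tttcgcctccGCGCCTGCGCgatagagtga
Psmd14, chr2:61711604-61711633, plus strand: caggcggcctGCGCGTGCGCtgtgtgctcc
These 6 genes did not share a direction: at 2.5 Gy their differences from 0 Gy ran from −0.57 for Psma3 to 0.65 for Psmc5.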

How the data were processed

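Expression was measured on Affymetrix whole-transcript arrays, 1 array per dose. All levels are log2 intensities as deposited, with 1 value for each probe set. Partek is named, with no version or role, per the submitters' processing notes. For background correction, normalization, summarisation and build, the method is "not given in the sources used here". That the scale is log2 follows from the range of the values. Of 25206 probe sets, 23185 had 1 symbol in the platform annotation, 0 several and 2021 none; the last were left out. For all 48 members the RefSeq symbol of the Entrez ID was the same. Genes with a mean of at least 4.55 over the 3 arrays were counted. Differences were taken per gene on the log2 scale, and genes were counted by fixed sizes of 2-fold and 1.5-fold, with no test. Alternatives were quantile normalization, median centring and loess over level, other level minima, the mean over members, and leaving out the members matched by symbol only. The steps were tested on simulated data. The number of arrays limits the precision. The members, lists and motifs were chosen with earlier results of these data known; any member could be named, and of each pathway list the 3 genes with the largest difference, with Tap2 besides. Markers of the sort and mature myeloid markers were all named. Of the other marker lists, the examples and averages given were picked after their values were seen. Python 3.11.15, pandas 2.3.3 and statsmodels 0.14.6 (loess span 0.3) were used.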

Additional observations from a re-analysis of the deposited data

How the results depend on the processing

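No paired analysis was possible because a dose was read on a single array, so nothing was tested. The median of the members, replaced by their mean in 1 of 7 alternatives, kept its sign under all 7 and moved by less than 0.1. It ran from 0.01 to 0.14 at 0.02 Gy, from 0.10 to 0.23 at 2.5 Gy and from 0.05 to 0.14 between the doses. The 0.05 was the mean, and the lowest median between the doses was 0.08. Other level minima left 48 or 34 members, and leaving out those matched by symbol only left 42. The lowest values at 0.02 Gy and at 2.5 Gy came after quantile normalization. Counts of 2-fold members moved as follows. Without a level minimum 2 were higher at 2.5 Gy than at 0 Gy, Psma5 being added, and 2 lower at 2.5 Gy than at 0.02 Gy, Psmg2 being added. After loess 0 were higher at 0.02 Gy. At 1.5-fold 5 were higher at 0.02 Gy, 4 higher and 1 lower at 2.5 Gy, and 1 higher between the doses, by construction. The counts of members highest on the 2.5 Gy array (22) and lowest on the 0 Gy array (24), chosen after seeing the data, ran from 15 (of 34 members with the minimum at the 75th percentile, 44.1%, against 34.6% of all genes) to 23 (of 48 with no minimum, 47.9%, against 30.1%) and, of 44, from 18 (40.9%, after quantile normalization and after loess) to 27 (61.4%, against 45.3%, after median centring). Of 396 values of single members under 3 scalings, 300 moved by less than 0.1, and 96 by more. Sign changed in 33 of the 396 (13 after quantile normalization, 12 after loess, 8 after median centring), all with main differences of at most 0.26 in size, among them Psmb1, Psmb9 and Psma6 at 0.02 Gy and Psme1 at 2.5 Gy. None of these was past 1.5-fold. No background signal comes with these values, so those near or below the level minimum, Psma5 above all, may not be measured above it.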
